A study of Mus musculus with 3 samples.

Results

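The long intergenic noncoding RNA (lincRNA) probes of a whole-genome mouse expression array were examined in bone marrow-derived macrophages (BMDMs) under 3 inflammatory stimuli. They were taken as all non-control probes whose name begins with A_30_P and numbered 16251 of the 55681 non-control probes on the array. The design names most of them by a mouse genome interval (build mm9) and by the strand of the RNA that the probe detects, F for forward and R for reverse. The probes formed 3555 regions, 3543 of them genome intervals and 12 of them RNAs printed under their own names. Of these regions 2488 were probed on 1 strand and 1067 on both, with 1 to 20 probes per region and a median of 3. The intervals ran from 62 to 7128490 bp in length, with a median of 7304 bp. The 12 named RNAs, such as NEAT1 and TUG1, held 57 of the probes. Each probe was 60 bases long and had 1 spot per array, and 16133 of the probes had a genome position while 118 had none.

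BMDMs of C57BL/6J mice, grown from femur and tibia marrow in macrophage colony-stimulating factor, were stimulated for 20 h with CpG, with IFN-γ plus an IL-10 receptor blocker (IFN-g+IL-10RB in the labels, shown as IFN-γ + αIL-10R in the plots and called the IFN-γ array in the text, although it includes the blocker), or with all of these at once (Triple). The study asked which receptors take part in hemophagocytosis, the engulfment of blood cells by macrophages. Each stimulus was hybridized to 1 array in 1 colour, and the labels give neither the number of mice nor whether cultures were pooled. Differences between arrays therefore have no replicate check, no test was made, and all 3 arrays carried a stimulus, so no value here is relative to resting macrophages.

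LincRNAs are transcripts longer than small RNAs that lie outside protein-coding genes and carry no long reading frame. Many are capped, spliced and polyadenylated like mRNAs, they are usually less abundant, and some act on chromatin, on RNA-protein bodies in the nucleus, or as precursors of microRNAs. In macrophages, Toll-like receptor ligands such as CpG DNA and interferons such as IFN-γ change the transcription of many such loci together with that of protein-coding genes. The labelling kit named in the labels primes cDNA from poly(A) tails, so an RNA without a tail and an RNA that is not made cannot be told apart at background.

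Sequences of the probes on which the results below turn are given 5′ to 3′ in the sense of the RNA, with mm9 positions. Capitals mark the polyadenylation hexamer AATAAA where a probe holds it. The first group lies beside Mrpl39 on chromosome 16, where RefSeq lists Mir155 and its host gene Mir155hg as the next genes, and held the largest differences between Triple and the IFN-γ array.
A_30_P01032196, chr16:84708738-84708797, forward: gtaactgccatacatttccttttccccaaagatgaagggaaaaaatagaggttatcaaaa
A_30_P01017643, chr16:84705907-84705966, reverse: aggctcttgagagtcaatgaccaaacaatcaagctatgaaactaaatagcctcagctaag
A_30_P01033281, chr16:84707486-84707545, forward: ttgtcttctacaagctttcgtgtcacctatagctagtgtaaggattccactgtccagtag
The next group was low in CpG alone and lies beside Irf1, an interferon-induced transcription factor, in the 4933433H22Rik locus and in Trim30c.
A_30_P01028276, chr11:53609314-53609373, reverse: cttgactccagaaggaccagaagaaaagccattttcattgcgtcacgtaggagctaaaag
A_30_P01025535, chr11:53596920-53596979, reverse: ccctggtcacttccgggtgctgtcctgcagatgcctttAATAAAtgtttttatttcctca
A_30_P01026610, chr17:84477494-84477553, reverse: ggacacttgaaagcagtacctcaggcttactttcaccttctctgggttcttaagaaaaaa
A_30_P01027922, chr7:111530579-111530638, reverse: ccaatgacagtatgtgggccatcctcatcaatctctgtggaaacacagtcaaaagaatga
The last group shows a region that was low in Triple (near Tgif1), a probe 506 bp from that of Kifc1 on the same strand, the Morrbid locus beside Bcl2l11, the region before Gpr157 and Mir34a, and the nuclear RNA NEAT1.
A_30_P01021359, chr17:71185146-71185205, forward: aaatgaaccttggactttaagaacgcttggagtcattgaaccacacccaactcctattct
A_30_P01028287, chr17:34018940-34018999, reverse: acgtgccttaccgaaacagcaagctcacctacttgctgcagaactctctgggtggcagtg
A_30_P01029173, chr2:128142132-128142191, reverse: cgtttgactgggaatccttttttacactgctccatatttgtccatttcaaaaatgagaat
A_30_P01025511, chr4:149445831-149445890, forward: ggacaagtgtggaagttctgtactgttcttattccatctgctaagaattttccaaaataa
A_30_P01020135 (NEAT1), chr19:5842594-5842653, reverse: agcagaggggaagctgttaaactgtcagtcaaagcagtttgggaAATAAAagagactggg

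The hexamer AATAAA was present on the probed strand in 637 lincRNA probes (3.92%) and in 13.2% of RefSeq mRNA probes. LincRNA probes with and without it were detected alike, 194 of 637 (30.5%, 95% exact binomial interval 26.9 to 34.2) against 4783 of 15614 (30.6%, 29.9 to 31.4).

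Values are gProcessedSignal, the scanner software's background-subtracted, arbitrary intensity of a spot, and a probe is called detected where the software marked it well above background and at background where it did not. Fold differences were taken after each array was scaled to its 75th percentile over the probes detected on all arrays, so a ratio of the printed signals differs slightly from the fold. Where the dimmer array was not well above background, the fold is a lower bound set by the lowest detected signal of that array and is written as at least that fold. Levels of different probes are not comparable, since probes differ in how well they bind.

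Macrophage markers were present throughout, with Csf1r, Cd68, Itgam, Emr1 and Cd14 detected on all 3 arrays, and Csf1r at a signal of 196810 in CpG, 230482 in the IFN-γ array and 159074 in Triple. Of 4 erythroid markers none was detected, and of 4 T cell markers 2 were, with Cd3e at 858, 869 and 806. Of the B cell genes, Cd79a was at 66.6, 75.5 and 43.6, and Ms4a1 and Pax5 were at background. Of 4 neutrophil markers, Ngp and Mpo were at background on every array, Elane had signals of 2839, 1615 and 1539, and Camp 72.9, 17.5 at background and 139. Further, 2 of 3 stromal markers were detected, Col1a2 at 317, 216 and 319. The dendritic cell gene Siglech was at 36076, 35974 and 29736 while Flt3 was at background. The part of other cell types in the lincRNA signals was not tested, and fewer cells of a type and less RNA per cell cannot be told apart in these cultures.

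Most lincRNA probes were at background in each condition. In CpG 4241 of the 15794 probes with a value were detected (26.9%, 26.2 to 27.6), in the IFN-γ array 4009 of 15636 (25.6%, 25.0 to 26.3) and in Triple 4012 of 15728 (25.5%, 24.8 to 26.2). These intervals cover counting error only, and probes of 1 region share an RNA. The same shares were 59.9%, 58.9% and 58.0% for the 26585 RefSeq mRNA probes. On all 3 arrays 3325 lincRNA probes (20.5%) were detected, 635 on exactly 2, 1017 on exactly 1 and 11274 (69.4%) on none. At least 1 probe was detected in 2105 of the 3555 regions (59.2%). The signals were low: the median over detected lincRNA probes was 92.3 in CpG, 101 in the IFN-γ array and 102 in Triple, where the lowest detected signal was 23.8, 26.7 and 26.3. No lincRNA probe was saturated.

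Precision followed the signal. From non-control probes printed in several spots on the same array, the technical standard deviation of a log2 fold was 0.36 to 0.40 at signals under 100, 0.11 to 0.15 between 100 and 1000, and 0.07 to 0.08 above 1000. About 50% of detected lincRNA probes lay in the lowest class (52.3% in CpG, 49.5% in the IFN-γ array and 49.5% in Triple). This error excludes the spread between cultures.

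Detection was higher with the GC content of the probe and with closeness to a gene on the same strand. On any array, 566 of 2617 probes with up to 35% GC were detected (21.6%, 20.1 to 23.3), and 508 of 758 with over 55% GC (67.0%, 63.5 to 70.4). The same 2 classes of RefSeq mRNA probes differed less, at 60.4% and 75.4%. The nearest RefSeq mRNA probe lay at a median distance of 32598 bp, and 10078 lincRNA probes had one within 50 kb. The name intergenic did not hold strictly, because 59 probes overlapped the position of an mRNA probe, 36 of them on its strand.

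Of 209 probes within 1 kb of an mRNA probe on their own strand, 130 were detected (62.2%, 55.3 to 68.8), against 84 of 275 (30.5%, 25.2 to 36.4) where the mRNA probe was on the other strand. Between 1 and 5 kb the shares were 44.9% (41.2 to 48.6) and 28.0% (24.9 to 31.2). Beyond 5 kb the strand made no visible difference, 31.6% against 30.9% up to 50 kb and 26.7% against 27.0% farther away. The shares that follow leave out overlapping probes. Within 5 kb on the same strand, 407 of 746 lincRNA probes were detected beside a detected mRNA probe (54.6%, 50.9 to 58.2) and 43 of 176 beside an undetected one (24.4%, 18.3 to 31.5). On the opposite strand these shares were 30.0% (27.0 to 33.1) and 22.7% (17.1 to 29.0). Probes upstream and downstream of the mRNA probe were detected alike on the same strand, 53.0% (45.8 to 60.1) and 47.7% (44.0 to 51.4). The distance is to the mRNA probe and not to the nearest exon. The side is also taken from the mRNA probe, so an upstream lincRNA probe can lie within the gene.

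**Figure D1:**
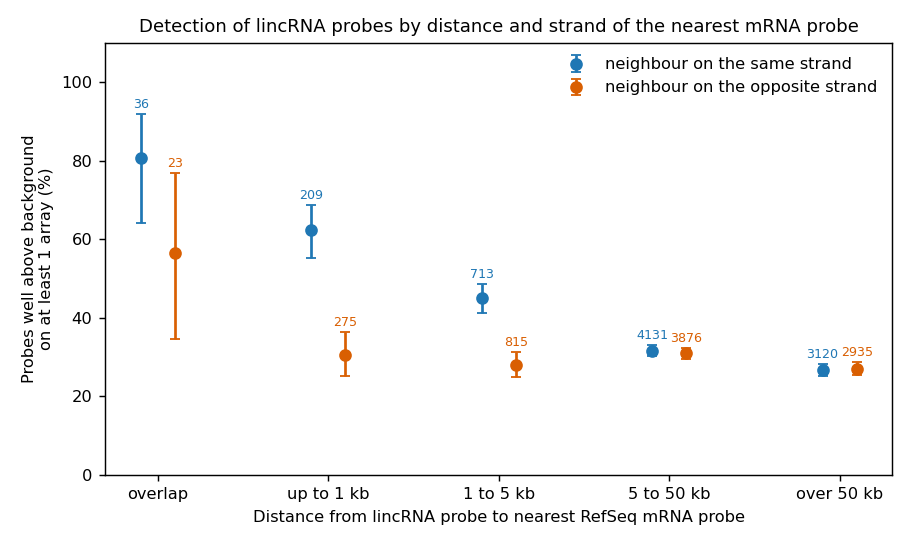
Share of lincRNA probes well above background on at least 1 array (vertical axis, percent) by distance to the nearest RefSeq mRNA probe (horizontal axis), for neighbours on the same strand (blue) and on the opposite strand (orange). Bars are 95% exact binomial intervals for counting error and the small figures are numbers of probes. Within 1 kb the share was 62.2% on the same strand and 30.5% on the opposite strand, and beyond 50 kb it was 26.7% and 27.0%.

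Position within the region made little difference, and when each region was cut into 5 equal lengths along the probed strand, 33.3% of probes were detected in the first and 29.6% in the last. Detection per chromosome ranged from 21.2% of 736 probes on chromosome 9 to 39.9% of 328 probes on chromosome 19. Among the 1067 regions probed on both strands, 489 (45.8%) had detected probes on both, 212 on the forward strand only, 206 on the reverse strand only and 160 on neither. When detection on all 3 arrays was required, 308 regions had both strands, 447 had 1 and 312 had neither.

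Differences between arrays of more than 2-fold were found for a minority of the detected lincRNA probes. Triple was higher than the IFN-γ array for 267 and lower for 222 of the 4440 lincRNA probes detected on either array. These are 6.01% and 5.00%, where all detected probes of the array gave 6.31% higher and 8.81% lower, and RefSeq mRNA probes 6.72% and 10.6%. CpG was higher than the IFN-γ array for 190 and lower for 263 of 4570, which is 4.16% and 5.75% against 5.01% and 5.80% of all detected probes. Triple was higher than CpG for 338 and lower for 205 of 4605, which is 7.34% and 4.45% against 7.25% and 7.87%. The shares of higher lincRNA probes were thus near the background of the array, and the shares of lower probes were below it for both comparisons with Triple. The 3 comparisons share arrays in pairs.

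Of these calls, 118 higher and 89 lower in Triple over the IFN-γ array rested on a lower bound, 104 and 113 in CpG over the IFN-γ array, and 151 and 105 in Triple over CpG. Over all probes, lower bounds made up 470 of 1563 higher and 484 of 2180 lower calls in the first comparison. They made up 412 of 1264 and 377 of 1461 in the second, and 510 of 1833 and 550 of 1990 in the third. More than 4-fold higher and lower were 66 and 44 of 4440 detected lincRNA probes, 34 and 56 of 4570, and 83 and 40 of 4605. All detected probes of the array gave 538 and 613 of 24753, 339 and 417 of 25207, and 571 and 504 of 25284. The median log2 fold of detected lincRNA probes was 0.02, -0.05 and 0.04 in the same order, and with spike-in scaling the first and last turned to -0.12 and -0.06. The split between higher and lower moved with the scaling: for Triple over the IFN-γ array, 54.6% of the calls were higher as reported, 66.5% when arrays were scaled over all probes, 64.0% by the median, 64.4% with the authors' values and 41.3% with spike-in probes. The spike-in scaling turned the excess round, to 216 higher and 307 lower. Under normexp background correction the higher share was 31.2% in place of 41.9% for CpG over the IFN-γ array and 77.1% in place of 62.2% for Triple over CpG.

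**Figure D2:**
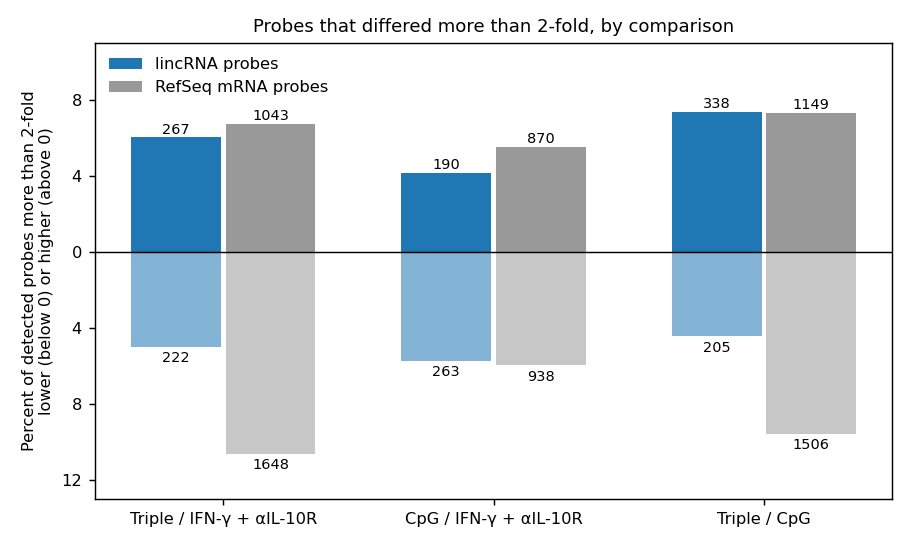
Percent of detected probes that were more than 2-fold higher (above 0) or lower (below 0) in each comparison of 2 arrays, for lincRNA probes (blue) and RefSeq mRNA probes (grey), with the number of probes at each bar. In Triple over the IFN-γ array 267 lincRNA probes were higher and 222 lower, against 1043 and 1648 mRNA probes.

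Against both other arrays at once, 181 lincRNA probes were higher in Triple and 63 lower, out of 4810 detected on any array with values on all 3 (3.76% and 1.31%). All detected probes gave 3.42% and 4.46%. CpG was higher than both others for 100 lincRNA probes and lower for 84 (background 2.18% and 2.49%), and the IFN-γ array was higher for 98 and lower for 52 (background 2.22% and 2.05%). An array position moved with these counts. In the first 48 of the 384 rows, which held 2037 lincRNA probes, 213 (10.5%) were detected on exactly 1 array, against 804 of 14214 (5.66%) in the other rows. Without those rows the probes higher only in CpG fell to 62 and those higher only in the IFN-γ array to 57. The part of this area in single-probe differences was not tested.

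Neighbouring probes of a region often moved together. Of called probes in regions with more than 1 probe, 190 of 470 (40.4%) in Triple over the IFN-γ array had another probe of the region called the same way, as had 170 of 442 (38.5%) in CpG over the IFN-γ array and 205 of 522 (39.3%) in Triple over CpG. The opposite way was seen for 2.98%, 2.94% and 7.47%. Among detected probes that were not called, 15.9%, 14.7% and 15.9% had any called probe in their region. These last shares hold both directions and the 40.4%, 38.5% and 39.3% only the same one, so they are not on 1 measure.

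The folds could be set beside those of overlapping probes of the array, a comparison added after the values were seen. For 275 pairs of a lincRNA probe and another array probe that overlap on the same strand, the log2 folds correlated at r = 0.85 over 79 pairs measured on both arrays in Triple over the IFN-γ array, 0.77 over 84 in CpG over the IFN-γ array and 0.89 over 81 in Triple over CpG, with a median difference of 0.11 to 0.12. These pairs share most of their target and both arrays, so r describes how well spots agree and cannot check a genome position. The 103 such pairs on opposite strands gave r = 0.11 over 23, 0.58 over 23 and 0.24 over 22 pairs. Among pairs of 2 overlapping lincRNA probes, the 499 on the same strand gave r = 0.85 over 139, 0.82 over 134 and 0.81 over 130. The 2927 on opposite strands gave r = 0.54 over 195, 0.58 over 217 and 0.50 over 204.

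Most genes next to called lincRNA probes did not pass the same limit. Within 50 kb the nearest mRNA probe was called the same way for 30 of 290 called lincRNA probes in Triple over the IFN-γ array (10.3%, 7.09 to 14.4), for 52 of 280 in CpG over the IFN-γ array (18.6%, 14.2 to 23.6) and for 68 of 339 in Triple over CpG (20.1%). It was called the opposite way for 14 of 290, 7 of 280 and 16 of 339. Beside detected lincRNA probes that were not called, 8.98%, 6.52% and 8.09% of the nearest mRNA probes were called in either direction. These shares hold both directions and the 10.3%, 18.6% and 20.1% only the same one, so the 2 sets are not on 1 measure. Within 5 kb on the same strand the nearest mRNA probe was called the same way for 9 of 41, 9 of 26 and 23 of 58. On the opposite strand this held for 2 of 25, 10 of 30 and 6 of 32. Beside lincRNA probes that were not called, the shares called in either direction were 2.11%, 3.76% and 4.35% on the same strand. On the opposite strand they were 7.56%, 5.79% and 8.08%. The nearest mRNA probe within 5 kb was called the opposite way for 0 of 66, 0 of 56 and 1 of 90. Across pairs within 5 kb on the same strand the log2 folds correlated at r = 0.51 (n = 333), 0.53 (n = 341) and 0.62 (n = 326), and on the opposite strand at 0.32 (n = 170), 0.44 (n = 178) and 0.33 (n = 167). At 5 to 50 kb r was 0.08, 0.21 and 0.17. The counts and correlations within 5 kb include lincRNA probes that overlap the mRNA probe and so share part of its target. On the same strand, 36 of the 958 lincRNA probes within 5 kb were of this kind, before any limit on detection. These are descriptions across probes of the same arrays, many of which share a neighbour.

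**Figure D3:**
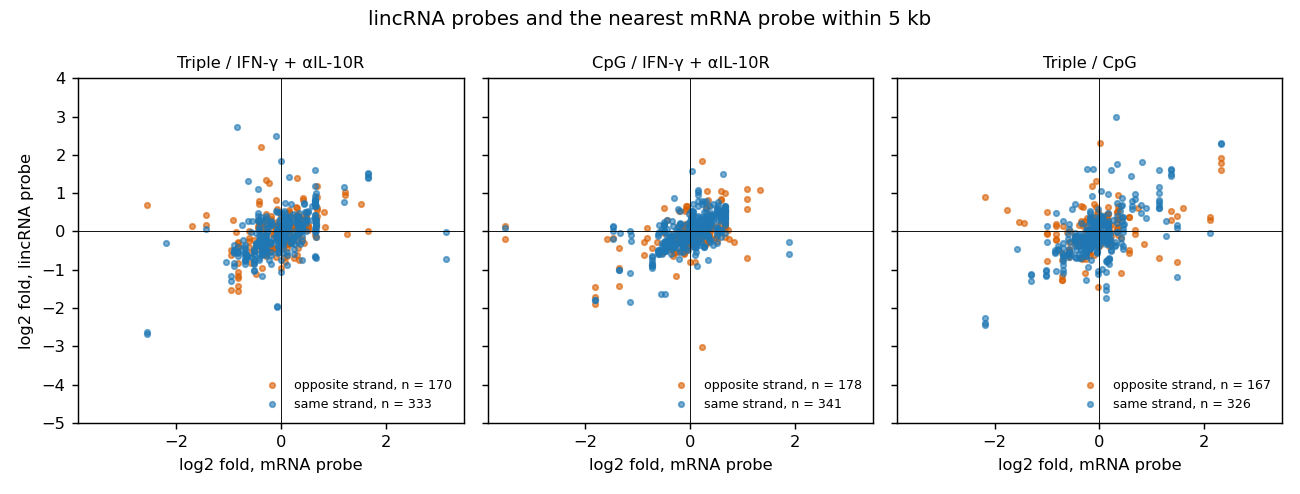
Log2 fold of each lincRNA probe (vertical axis) against that of the nearest RefSeq mRNA probe within 5 kb (horizontal axis), for the 3 comparisons, where both probes were well above background on both arrays. Each point is 1 pair, blue for the same strand and orange for the opposite strand, and pairs of overlapping probes are included. Same-strand pairs gave r = 0.51, 0.53 and 0.62.

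The locus beside Mrpl39 held the largest differences of lincRNA probes between Triple and the IFN-γ array. Its regions span chr16:84702353-84710928, 9178 to 12009 bp from the probe of Mrpl39, a mitochondrial ribosomal protein gene, and RefSeq places Mir155 and Mir155hg, the microRNA and its precursor that inflammatory signals induce in macrophages, next to Mrpl39 on that side. Of the 13 probes, 9 were higher in Triple than in each of the other arrays. A_30_P01032196 gave a signal of 198 in CpG, 29.0 in the IFN-γ array, where it was not well above background, and 2737 in Triple, at least 96.5-fold over the IFN-γ array and 14.4-fold over CpG. A_30_P01017643 gave 126, 27.4 and 1653, at least 61.7-fold and 13.6-fold. A_30_P01018526 was well above background on every array at 117, 44.8 and 1423, a difference of 32.4-fold and 12.6-fold. Of the 9, 7 were on the forward and 2 on the reverse strand.

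Of the other probes of the locus, 6 were also higher in Triple than in the other arrays, at lower signals, and the 3 reverse-strand probes of chr16:84708005-84708675 were at background on every array. In the short forward-strand region chr16:84707202-84707748, A_30_P01033281 gave 10.3, 6.81 and 239, A_30_P01028475 15.4, 5.53 and 224, and A_30_P01025697 13.0, 21.7 and 183, so all 3 were detected in Triple alone, the first 2 at least 9.16-fold and 8.59-fold over the IFN-γ array. A_30_P01024571, forward, gave 56.6, 22.4 and 421. CpG alone was above the IFN-γ array at 5 of the 13 probes, and at A_30_P01020928 (136 against 17.6) the Triple spot carried an outlier mark. The Mrpl39 probe was nearly level at 109, 99.0 and 101. The microRNA itself was not measured by these probes.

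At the Irf1 locus on chromosome 11, most reverse-strand probes were higher in both arrays that received IFN-γ than in CpG. A_30_P01028276 gave 56.2 in CpG, 780 in the IFN-γ array and 520 in Triple, 14.1-fold lower in CpG than in the IFN-γ array and 9.61-fold higher in Triple than in CpG. A_30_P01025535 gave 53.1, 287 and 250, a 5.49-fold and a 4.91-fold difference. A_30_P01030888 gave 17.2, 151 and 109, A_30_P01030240 5.81, 119 and 92.4, A_30_P01031674 5.89, 101 and 50.7 and A_30_P01029685 5.43, 76.7 and 40.4, all at background in CpG. A_30_P01019936 gave 90.2 and 74.7, with an outlier mark on its CpG spot. Between the IFN-γ array and Triple none of these differed by 2-fold. The last reverse-strand probe was at background throughout. Of the 5 forward-strand probes, A_30_P01032128 was level at 239, 213 and 237, A_30_P01020660 gave 25.5, 46.9 and 12.1 with only the middle value above background, and the others were at background.

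RefSeq lists Gm12216, a long noncoding RNA gene, directly after Irf1. A probe of the array for the Gm12216 transcript NR_033332 gave 32.5, 242 and 216, and another, AK039036, gave 2154, 2375 and 2892. The nearest Irf1 probe gave 8.20, 191 and 252 on the opposite strand, 5023 to 17438 bp from the detected reverse-strand probes. A_30_P01023399, on the reverse strand, lay outside this locus, 16213 bp from another Irf1 probe that gave 9196, 132675 and 123964. It went the other way between CpG and the IFN-γ array, with 356, 138 and 867.

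**Figure D4:**
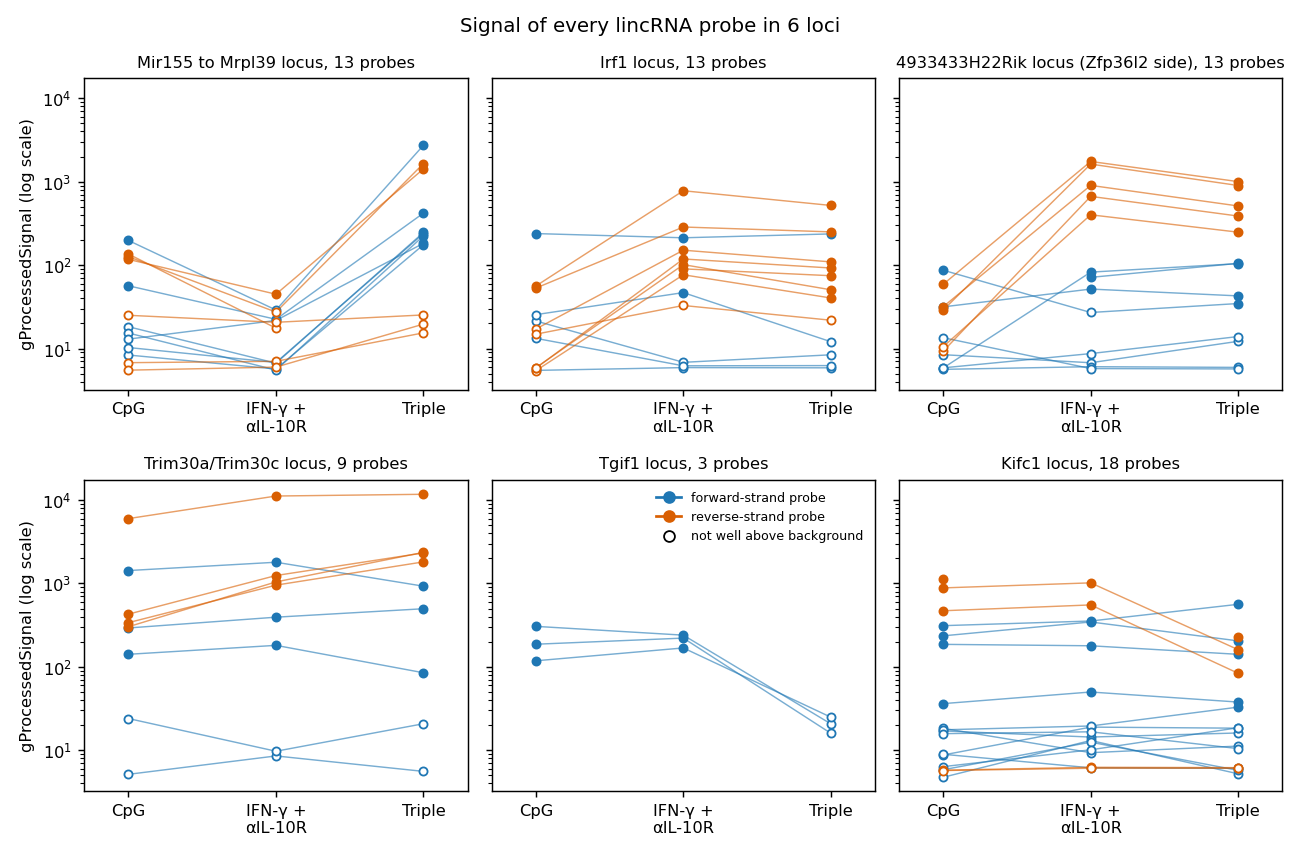
Signal (gProcessedSignal, log axis) of every lincRNA probe in 6 loci on the CpG, the IFN-γ array and Triple arrays. Lines join the values of 1 probe, blue for forward-strand and orange for reverse-strand probes, and open circles are not well above background. In the locus beside Mrpl39 the Triple values stand above the others at 9 of 13 probes, and in the Irf1 and 4933433H22Rik loci the CpG values of the reverse-strand probes are the lowest.

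The largest difference between CpG and the IFN-γ array among lincRNA probes well above background on both arrays lay in the 4933433H22Rik locus, chr17:84470764-84489215. RefSeq lists 4933433H22Rik as a long noncoding RNA gene 3 genes before Zfp36l2, an mRNA-decay factor. A_30_P01026610, on the reverse strand, gave 29.0 in CpG, 1627 in the IFN-γ array and 901 in Triple, 57.2-fold lower in CpG. A_30_P01029869 gave 58.9, 1749 and 1003, A_30_P01028308 31.8, 904 and 512, and A_30_P01027576 9.30, 667 and 388, the last at least 28.6-fold lower. A_30_P01026993 gave 10.5, 401 and 248. Triple lay below the IFN-γ array at all 5 of these, by a log2 value of -0.66 to -0.82, within the 2-fold limit. A_30_P01026610 lies in the first 48 rows of the array, and the other 4 were of the same order.

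On the forward strand of this locus the picture differed. A_30_P01032282 gave 87.0, 27.1 and 34.7, highest in CpG, while A_30_P01023448, 94260 bp from the Zfp36l2 probe, gave 5.86, 82.5 and 104. The array's own 4933433H22Rik probe gave 22.5, 84.7 and 99.9. The sequence of A_30_P01026993 matches the promoter window of 4933433H22Rik in the opposite direction, beginning 198 bases before its start site, so this probe reads the strand opposite to that gene. The window (RefSeq, build GRCm38.p6, chr17:84078410-84078709, forward, 250 bases before to 50 after the start) is shown with the match in capitals.
4933433H22Rik: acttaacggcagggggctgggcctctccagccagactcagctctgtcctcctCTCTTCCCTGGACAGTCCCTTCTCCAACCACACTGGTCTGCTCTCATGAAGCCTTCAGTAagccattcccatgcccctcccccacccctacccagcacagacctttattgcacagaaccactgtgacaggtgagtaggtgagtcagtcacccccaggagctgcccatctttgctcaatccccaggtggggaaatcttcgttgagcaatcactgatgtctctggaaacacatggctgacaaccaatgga
Another member with a promoter match was A_30_P01024637 (chr1:138579991-138580050, forward), which gave 65.0, 730 and 215, 11.4-fold lower in CpG than in the IFN-γ array, and 3.32-fold lower in Triple. It matches the window of the long noncoding RNA gene Gm19705 (GRCm38.p6, chr1:136683379-136683678, forward) in the same direction, beginning 215 bases before the start site.
Gm19705: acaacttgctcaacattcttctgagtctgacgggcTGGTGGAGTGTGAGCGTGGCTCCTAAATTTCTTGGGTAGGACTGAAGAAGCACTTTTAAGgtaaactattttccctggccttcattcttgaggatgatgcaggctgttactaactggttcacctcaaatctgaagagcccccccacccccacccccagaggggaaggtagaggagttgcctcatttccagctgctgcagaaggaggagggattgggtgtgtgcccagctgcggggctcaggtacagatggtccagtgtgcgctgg
The letters TTCNNNGAA, a gamma-activated motif that reads the same on both strands, were in neither window and in 8.30% of the 32851 RefSeq promoter windows of this length. In all, 170 lincRNA probes matched a promoter window exactly. Of those matching a protein-coding promoter, 28 of 44 in the opposite direction and 17 of 40 in the same direction were detected.

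Further regions low in CpG alone lay in or beside Trim30c, Nlrc5, Herc6, Rnf213 and Hectd4. In Trim30c, a tripartite-motif gene, A_30_P01027922 gave 303, 1043 and 2358, 3.50-fold lower in CpG than in the IFN-γ array and 2.31-fold higher in Triple than in the IFN-γ array. The array's Trim30c probe covers the same 60 bases and gave 296, 1080 and 2400. A_30_P01033671 gave 428, 1244 and 2320 and A_30_P01024838 339, 954 and 1812, so all 3 had the order CpG, the IFN-γ array, Triple from low to high, although these 2 differed by less than 2-fold between the last arrays.

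Beside Nlrc5, a transactivator of MHC class I genes, 3 forward-strand probes lay 36417 to 36540 bp from its probe. A_30_P01023799 gave 27.4, 90.2 and 114, A_30_P01028457 29.1, 80.1 and 111, and A_30_P01023590 13.2, 78.7 and 70.0. All 3 were more than 2-fold lower in CpG than in each of the others. At Herc6, an interferon-induced ubiquitin ligase, A_30_P01025357 lies 37 bp from the Herc6 probe on its strand and gave 1621, 5483 and 7658, and the reverse-strand A_30_P01018494 gave 85.2, 272 and 285. The Herc6 probe gave 839, 2907 and 4053. At Rnf213, a large ubiquitin ligase near Slc26a11, 7 of 9 lincRNA probes were lower in CpG than in the IFN-γ array, such as A_30_P01022005 with 398, 1104 and 844, while the array's Rnf213 probe gave 271, 523 and 534. In the region chr5:121778090-121779622, 4411 bp from the probe of Hectd4 at its nearest, A_30_P01022624 gave 62.4, 190 and 212, A_30_P01032647 229, 548 and 556, and A_30_P01021211 153, 310 and 295.

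A pair of overlapping forward-strand probes near Slc4a1ap shared the order. A_30_P01030209 gave 38.1, 484 and 245, 12.9-fold lower in CpG than in the IFN-γ array, and A_30_P01029641 gave 9.74, 473 and 224, at least 20.3-fold lower. On chromosome 14 near Rbm26, A_30_P01032356 gave 1602, 12790 and 7701, an 8.12-fold difference, whereas the highest of the 12 other probes of its region gave 671, 531 and 664. The latter region therefore rests on 1 probe.

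Another set of regions was higher in CpG and in Triple than in the IFN-γ array. Before Gpr157, where RefSeq lists Mir34a as the next gene, A_30_P01025511 gave 1441 in CpG, 223 in the IFN-γ array and 1132 in Triple, 6.35-fold and 5.19-fold above the IFN-γ array. A_30_P01024344 gave 1070, 193 and 946, and A_30_P01032002 168 and 694 with no value in CpG. Near Epop, 8 of 20 probes on both strands were higher than in the IFN-γ array in both other arrays, among them A_30_P01033044 with 161, 40.9 and 285 (3.87-fold and 7.11-fold) and A_30_P01018430 with 178, 39.8 and 270. In a region 133348 to 133790 bp from the probe of Peg10, an imprinted gene, A_30_P01021445 gave 17181, 6404 and 21708 and A_30_P01017482 19435, 7110 and 25077, with forward-strand probes of the same order.

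Some regions were high in CpG alone. Near Slco4a1, an organic anion transporter gene whose next genes in RefSeq include Mir133a-2 and Mir1a-1, A_30_P01031421 gave 309, 53.2 and 57.7, 5.70-fold above the IFN-γ array and 5.15-fold above Triple. Its neighbour A_30_P01028906 gave 164, 21.1 and 27.5. In the region chr14:22267795-22319045 near Adk, 7 of 20 probes were higher in CpG than in each of the others, such as A_30_P01020306 with 20076, 5746 and 6048 and A_30_P01027974 with 6451, 1747 and 1872. These 7 probes had a region name but no probe position of their own.

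Regions highest in Triple were led by the locus beside Mrpl39 and also included Morrbid and a region beside Tnc. Morrbid is a long noncoding RNA known to repress the neighbouring Bcl2l11, which encodes the pro-apoptotic protein Bim. Of 15 probes, 6 on the reverse strand exceeded their IFN-γ array value by over 2-fold in Triple, and 3 of them also their CpG value, A_30_P01029173 with 109, 92.0 and 285, A_30_P01027743 with 79.0, 70.0 and 242, and A_30_P01026716 with 75.6, 66.6 and 183. The array's own Morrbid probe carried an outlier mark on all 3 arrays. Beside Tnc, which encodes the matrix protein tenascin C, A_30_P01022967 gave 40.9, 42.6 and 125 and A_30_P01025901 62.4, 31.8 and 143. In 4930562C15Rik, A_30_P01019478 gave 603, 271 and 1788, and it lies in the first 48 rows of the array. The 17 other lincRNA probes of its region reached at most 134, 79.8 and 149. Among lincRNA probes the region therefore rests on A_30_P01019478 alone. The array's own 4930562C15Rik probe was at background at 5.95, 12.3 and 10.8. On the opposite strand, the array's Gm10914 probe was also highest in Triple, at 858, 1101 and 2332.

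Regions lower in Triple included 1 near Tgif1, a transcriptional repressor gene. A_30_P01021359 gave 306 in CpG, 240 in the IFN-γ array and 20.7 in Triple, A_30_P01021048 187, 221 and 16.0, and A_30_P01027810 118, 168 and 24.9. All 3 probes of the region were at background in Triple, at least 8.91-fold, 8.21-fold and 6.26-fold below the IFN-γ array. At Kifc1, a mitotic kinesin gene, A_30_P01028287 gave 884, 1016 and 161 and A_30_P01019819 470, 552 and 83.7, 6.19-fold and 6.46-fold lower in Triple than in the IFN-γ array. A_30_P01023554 overlaps the Kifc1 mRNA probe and gave 1140 and 230 in CpG and Triple, where the Kifc1 probe gave 1102, 1398 and 232, the same order as the lincRNA probe between CpG and Triple.

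The loci with most lower probes in Triple lay near Zfp652 and Dennd1b, chosen after the values were seen by the count of called probes. Near Zfp652, a zinc finger gene, 12 of 22 probes were lower than in the IFN-γ array, on both strands, such as A_30_P01023450 with 1947, 2104 and 792 and A_30_P01024722 with 503, 559 and 203. The array's Zfp652 probe in the locus gave 2220, 2448 and 927. Near Dennd1b, a gene of vesicle traffic, 11 of 16 were lower in Triple and 9 lower in CpG than in the IFN-γ array, such as A_30_P01025214 with 4022, 7867 and 3178, so the IFN-γ array stood highest. Between Hmbox1 and Kif13b, 10 of 29 probes were lower in CpG than in the IFN-γ array, such as A_30_P01021325 with 2506, 5262 and 2424.

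Further probes were lower in Triple than in both other arrays. A_30_P01018351 gave 145, 198 and 32.2, and the array's probe for Foxd2os, a noncoding RNA gene, covers the same 60 bases and gave 149, 195 and 34.3. A_30_P01030698 gave 610, 626 and 102, 6.00-fold lower in Triple, and a probe of the array for Eldr in this locus gave 64.6, 60.4 and 27.2. At 89008 and 89147 bp from the probe of Cpm, which encodes the macrophage enzyme carboxypeptidase M, A_30_P01029964 gave 319, 342 and 68.8 and A_30_P01018019 177, 179 and 37.8. Near Usp46, A_30_P01025874 gave 145, 305 and 63.5.

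Many of the largest single differences stood alone in their region. A_30_P01032726 on chromosome X gave 6.01, 6.32 and 1329, at least 50.9-fold over the IFN-γ array, while the highest of the 9 other probes of its region gave 67.8, 70.5 and 47.0. A_30_P01022131 gave 11.1, 6.08 and 813 and A_30_P01029335 5.89, 7.67 and 471, while the other probes of the first region reached 203, 201 and 217 and those of the second were at background. A_30_P01018868 gave 571, 6.40 and 6.50, A_30_P01022836 408, 24.7 and 16.9, and A_30_P01033372 361, 6.95 and 6.63, each detected in CpG alone. A_30_P01024308 gave 8.97, 373 and 18.9, A_30_P01031813 10.8, 329 and 6.98, and A_30_P01032464 10.5, 303 and 6.17, each detected in the IFN-γ array alone. Of these 9 probes, A_30_P01022836, A_30_P01024308, A_30_P01031813 and A_30_P01032464 lie in the first 48 rows of the array. With 1 spot per array, a stray spot and a short RNA cannot be told apart.

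A pair of probes that stood apart from the rest of their regions was detected on all arrays. A_30_P01018532 near Ccdc6 gave 657, 178 and 2424, 13.9-fold higher in Triple than in the IFN-γ array, and the 9 other probes of its region reached at most 23.1, 31.8 and 25.4. A_30_P01032489 near Adam39 gave 132, 198 and 1468, with other probes up to 127, 203 and 109. Near Plac1, A_30_P01032068 gave 155, 33.6 and 24.4 and A_30_P01024529 of the same locus 64.1, 15.0 and 15.9, both highest in CpG and at background in Triple, the second also in the IFN-γ array. Near Svil, A_30_P01022336 gave 181, 31.3 and 18.8, the last at background, and A_30_P01022543 gave 124, 26.0 at background and 37.8.

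LincRNA probes next to genes of 4 lists of macrophage function were few. Of 20 genes of the IFN-γ response, only Irf1 had a lincRNA probe within 50 kb by the nearest mRNA probe, with 16 probes of which 10 were detected, 6 lower in CpG than in the IFN-γ array and 1 higher. Of 22 genes of the Toll-like receptor response, Nfkbia and Socs3, both feedback inhibitors, had 28 probes, of which 8 were detected and none was called against the IFN-γ array. The Socs3 neighbours were nearly level at A_30_P01032862 (366, 352 and 376) and A_30_P01030472 (47.6, 41.7 and 45.5), and A_30_P01031804 gave 70.4, 114 and 160, 2.36-fold higher in Triple than in CpG. Of 24 transcription factor genes, 6 had 45 probes with 12 detected, and 3 of these were lower in Triple than in the IFN-γ array. The 3 were A_30_P01031572 near Klf2 (3301, 4651 and 1634), A_30_P01022562 near Jun (111, 166 and 77.9) and A_30_P01032173 near Junb (6.26, 70.8 and 6.69), the last at background in CpG and Triple and lower in CpG as well. In the region near Klf2, A_30_P01027755 on the same strand was nearly level at 1116, 1377 and 1151 and was not called. Closer to Junb, A_30_P01030362 gave 190 and 170 without a Triple value, A_30_P01030317 32.3, 19.3 and 19.1, and A_30_P01032256 36.7, 15.3 and 28.6, with only the CpG value of the last 2 above background. Of 15 adhesion and uptake genes, Sirpa, the receptor for CD47, had 3 probes with 2 detected and none called.

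Well-known long noncoding RNAs with their own names differed by less than 2-fold. NEAT1, the scaffold of nuclear paraspeckles, was detected at all 5 probes, with signals of 10670 to 23914 in CpG, 5907 to 12601 in the IFN-γ array and 8597 to 19342 in Triple. Every NEAT1 probe was highest in CpG and lowest in the IFN-γ array, with median log2 folds over the IFN-γ array of 0.85 in CpG and 0.62 in Triple. TUG1 had another order at all 5 probes, from 248 to 1031 in CpG through 313 to 1280 in the IFN-γ array to 383 to 1674 in Triple, with medians over the IFN-γ array of 0.42 for Triple and -0.36 for CpG on the log2 scale. NEAT2 (Malat1), of nuclear speckles, gave 498 to 743, 635 to 954 and 495 to 676 at 3 probes, with the IFN-γ array highest at each. The spread between cultures is not known, and 1 of the NEAT1 probes, A_30_P01021631, differed between Triple and CpG by -0.06 on the log2 scale, within the technical spot error.

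**Figure D5:**
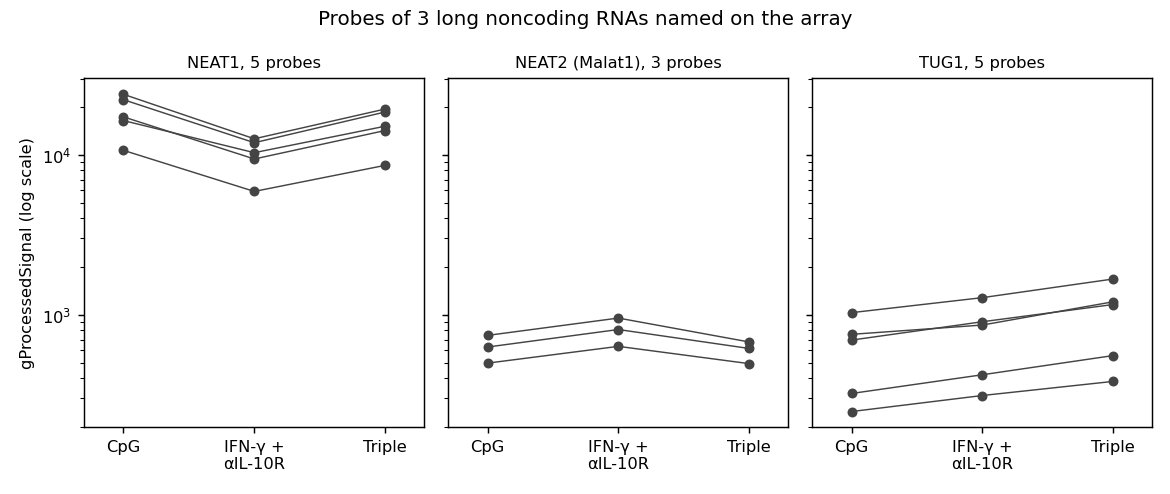
Signal (gProcessedSignal, log axis) of the probes of NEAT1, NEAT2 and TUG1 on the 3 arrays, each line 1 probe. The NEAT1 probes are lowest in the IFN-γ array (5907 to 12601), the NEAT2 probes highest there (635 to 954), and the TUG1 probes highest in Triple (383 to 1674).

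The remaining named RNAs were mostly at background. KCNQ1ot1, an antisense regulator of an imprinted cluster, was detected at 2 of 5 probes, A_30_P01026203 with 423, 355 and 293 and A_30_P01026714 with 34.3, 29.6 and 37.6. NRON, a repressor of the transcription factor NFAT, was detected at 2 of 5, with A_30_P01025636 at 185, 252 and 177. HOTAIR was detected at 1 of 5, A_30_P01022414, with 68.2, 70.0 and 66.7. H19, PINC, TSIX, XIST and lincP21 were at background at all 5 of their probes on every array.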

How the data were processed

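Per the labels and file headers, the authors labelled RNA from BMDMs with Cy3 and hybridized 1 array per condition. Agilent Feature Extraction 10.10.1.1 then gave each spot a background-subtracted intensity (gProcessedSignal), deposited unscaled, with a mark for signals well above background. The authors also deposited log2 values of the same arrays, used here only as an alternative. No deposited column was without a sample (0).

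Control spots and outlier-marked spots were left out. Intensities were scaled to the 75th percentile over probes well above background on all 3 arrays, and log2 differences were called past 2-fold where either array was well above background. The dimmer array was set to its lowest detected signal where it was not. With 1 array per group no test was made, and intervals are 95% exact binomial. On simulated arrays of Triple over the IFN-γ array (53164 probes), 0 of 50 probes changed 1.5-fold and 47 of 50 changed 2.5-fold were called. Recovery was not shown for lincRNA probes with signals under 100, so these counts do not describe calls there. Such probes were 49.5% of those detected in the IFN-γ array and 49.5% in Triple, and their spot error was the largest. Named probes were the largest measured folds and largest lower bounds in each direction, the 12 nearest to listed genes, and probes of regions called throughout. Further loci, such as those with most called probes, were added after the values were seen. The members and lists were chosen with earlier results of these data known. The only depth measure of an array is signal over background, and the number of arrays limits precision. Python 3.11.15, pandas 2.3.3, scipy 1.17.1 and limma 3.58.1 (normexp) were used. Of the marker lists, 1 gene is not reported here.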

Additional observations from a re-analysis of the deposited data

How the results depend on the processing

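No paired analysis was possible because only 1 array was made for each stimulus. Leaving out a replicate could not be done for the same reason. Of the 108 folds of named probes that passed 2-fold, none changed direction under any alternative run, and 13 fell within 2-fold under normexp. The linear scalings move all probes of an array alike, here by about 0.13 at most on the log2 scale. They could therefore not turn such a fold, and many named probes were chosen for large folds. Smaller folds of named probes were not checked for a change of direction. The medians near 0 took the other sign under some scalings, for Triple over the IFN-γ array at -0.12 with spike-in probes, -0.07 relative to Actb and -0.01 without scaling. Another 184 values of summary results moved by less than their interval or 1.5 times, and the cause of the shifts below was not tested beyond each alternative's own construction.

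Scaling moved the median log2 fold of all detected probes in Triple over the IFN-γ array by 0.13 with the percentile over all probes, 0.11 with the median, 0.11 with the authors' values and -0.13 with spike-in probes. Relative to that median the lincRNA probes were at 0.06 under these linear scalings, which cannot change this value because they shift all probes alike. It was 0.08 with quantile scaling and 0.05 with normexp, which are not linear.

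With the software's weaker mark of a significant positive signal, detection became 57.0% in CpG, 54.8% in the IFN-γ array and 54.0% in Triple, and regions with both strands detected became 978, against 308 when all 3 arrays were required. Counts of calls follow in the order normexp, both arrays above background, no filter, 1.5-fold and 3-fold. Triple over the IFN-γ array gave 117, 149, 1212, 624 and 117 higher and 74, 133, 1083, 636 and 71 lower. CpG over the IFN-γ array gave 44, 86, 1100, 491 and 67 higher and 97, 150, 1216, 679 and 93 lower. Triple over CpG gave 145, 187, 1322, 820 and 146 higher and 43, 100, 1099, 513 and 69 lower. Against both other arrays, CpG gave 19, 16, 588, 231 and 43 higher, with 62 without the first 48 rows, the IFN-γ array 27, 33, 575, 325 and 30, with 57 without those rows, and Triple 80, 78, 716, 393 and 74. Lower than both others, in the order normexp, no filter, 1.5-fold and 3-fold, were 45, 346, 220 and 35 in CpG, 18, 314, 157 and 16 in the IFN-γ array and 15, 302, 187 and 19 in Triple.

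The share of called probes whose neighbour was called the same way became 14.6% (spike-in), 23.6% (1.5-fold), 5.21% (3-fold) and 16.7% (within 5 kb) in Triple over the IFN-γ array. It became 9.99% without a filter and 33.9% within 5 kb in CpG over the IFN-γ array, and 12.6% and 32.2% in Triple over CpG. The share with another called probe in the region became 48.2% (1.5-fold) and 33.1% (3-fold) in Triple over the IFN-γ array, 47.1% (normexp), 51.3% (both arrays), 46.2% and 30.1% in CpG over the IFN-γ array, and 46.5% and 33.5% in Triple over CpG.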
